A study of Mus musculus with 12 samples.

Results

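Gene expression in the cortex of pre-symptomatic R6/2 mice was compared with that in the cortex of WT littermates, which asks what had already changed in the HD cortex before symptoms. The comparison used 4 of the 12 libraries of the series, chosen by their labels as cortex of pre-symptomatic HD mice or of WT mice. R6/2 mice express exon 1 of human HTT from a transgene whose CAG repeat is expanded, and so make a fragment of mutant huntingtin in addition to the protein of their own Htt genes. WT mice were littermates without the transgene, and no group received a treatment. The 2 pre-symptomatic HD libraries came from mice of 8 weeks. The 2 WT libraries came from a mouse of 8 weeks and a mouse of 13 weeks, so the WT spread holds an age difference as well as a difference between mice. The labels give no strain, and they do not say whether the cortex and striatum libraries came from the same mice. Xist and Y-linked genes showed a male and a female library in each group, the male in WT being the mouse of 8 weeks, so the libraries of a group came from different mice. The p-values below measure the spread between these libraries, in which mouse, sex and, in WT, age cannot be told apart. The deposited values were counts of reads per gene from 3′ end sequencing, which reads the end of polyadenylated transcripts. The totals were 10658856 and 10336064 in the HD libraries and 12091201 and 11899125 in the WT libraries of 8 and 13 weeks. Levels are given as CPM, the share of a library's counts scaled to a common total, after TMM scaling, a normalization that sets the bulk of genes equal between libraries.

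Huntington's disease is caused by an expanded CAG repeat in HTT, and its earliest pathology is known mainly from the striatum and from the cortical neurons that project to it. In the cortex, glutamatergic projection neurons signal through receptors held in the postsynaptic density by scaffold proteins, GABAergic interneurons restrain them, and oligodendrocytes wrap their axons in myelin. Myelin is built of a few very abundant proteins, so the transcripts of these proteins report both the number of mature oligodendrocytes and what each of them makes. In bulk tissue, fewer cells of a type and less RNA per cell cannot be told apart.

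The libraries carried the markers of cortex. The 8 excitatory neuron markers summed to between 18140 and 19370 CPM in HD libraries and to between 16900 and 20730 CPM in WT libraries, whereas the 13 markers of striatal projection neurons in the files summed to between 335 and 494 CPM in all 4. The ependymal and choroid plexus markers summed to between 9.18 and 13.6 CPM in the 4 libraries, but to between 79.3 and 2944 CPM in the post-symptomatic HD cortex libraries, which entered the fit only for its estimate of spread. Replicates differed by more than sampling noise, with a chi-square per degree of freedom of 7.23 between the HD libraries and 12.6 between the WT libraries. Rn45s, which stands for the ribosomal RNA precursor, accounted for 13.3% and 13.8% of all counts in the HD libraries and 5.16% in each WT library. Its part in the results below was not tested beyond a fit without it, which called 1390 genes.

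Of 14003 genes tested, 1007 were higher in pre-symptomatic HD cortex (7.19%) and 412 were lower (2.94%), so 10.1% were called in either direction at an adjusted p under 0.05 by the quasi-likelihood test of edgeR (Benjamini-Hochberg). The genes called higher had a median log2 fold change of 0.79, and 317 of them differed by over 2-fold. The genes called lower had a median of -0.51, and 31 of them differed by over 2-fold. Among called genes the increases were thus both more frequent and larger than the decreases. The 2 sets differed in level, with a median WT level of 31.8 CPM for genes called higher and 121 CPM for genes called lower. The part of level in the size of the called changes was not tested. The 2 HD and 2 WT libraries did not overlap in 53.9% of all genes tested, so a gap between the groups alone carries little weight. For a single gene an exact permutation test of 2 against 2 libraries cannot go below a two-sided p = 0.333. With each of the 4 libraries left out in turn, the number of called genes was 591 and 512 without HD replicates 1 and 2, 641 without the WT mouse of 8 weeks and 998 without that of 13 weeks. In all 4 of these fits, 305 of the higher genes (30.3%) and 31 of the lower genes (7.52%) kept their call. The balance between directions rested on the scaling. With library totals in place of TMM, which lowered the median log2 fold change of all genes from -0.01 to -0.15, 719 genes were higher and 1346 lower, so that 34.8% of calls were higher in place of 71.0%. Changes are given below relative to the bulk of genes.

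**Figure D1:**
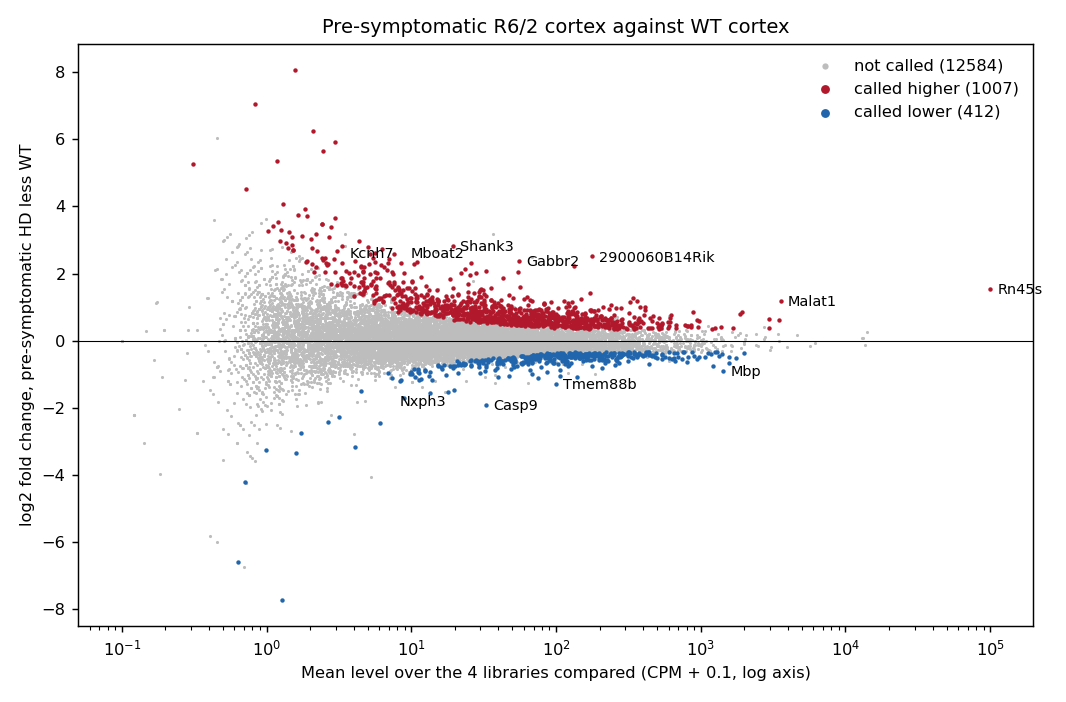
Each point is a gene tested, by its mean level over the 4 libraries (horizontal, CPM + 0.1 on a log axis) and its log2 fold change in pre-symptomatic HD less WT cortex (vertical). The 1007 genes called higher (red) reach larger fold changes than the 412 called lower (blue), and Rn45s stands far to the right of all other genes.

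The largest increases among genes with a mean of at least 5 CPM included proteins of the synapse. Shank3 encodes a scaffold of the postsynaptic density and lies on chromosome 15 from 89499623 to 89560261 on the plus strand (GRCm38, GENCODE M21). Shank3 was at 35.6 and 32.2 CPM in the HD libraries, and at 4.05 and 5.53 CPM in the WT libraries of 8 and 13 weeks. Both HD libraries lay far above both WT libraries, with a log2 fold change of 2.82 (standard error 0.29, edgeR adjusted p = 5.21e-06). Gabbr2, on chromosome 4 from 46662305 to 46991873 on the minus strand, encodes a subunit of the metabotropic GABA-B receptor. Gabbr2 was at 91.0 and 95.7 CPM in HD and at 19.9 and 15.9 CPM in WT, a log2 fold change of 2.38 (standard error 0.18, edgeR adjusted p = 8.16e-09). Its partner subunit Gabbr1 did not pass the test, with means of 461 CPM in HD and 557 CPM in WT. Kcnh7, a voltage-gated potassium channel of the ERG family, was at 13.7 and 14.4 CPM in HD and at 2.48 and 3.14 CPM in WT. The HD values were again several times the WT values (log2 fold change 2.31, standard error 0.33, edgeR adjusted p = 7.33e-05).

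The smallest p-value among the named genes belonged to 2900060B14Rik, a noncoding RNA with a single annotated exon on chromosome 1 from 118458652 to 118459267 on the minus strand, inside Clasp1 and antisense to it. It was at 274.8 and 329 CPM in HD and at 55.3 and 50.8 CPM in WT, and its mean was 5.69 times that of WT (log2 fold change 2.51, standard error 0.13, edgeR adjusted p = 3.88e-12). Clasp1, a microtubule plus-end protein, was at 52.3 and 56.0 CPM in HD and at 27.9 and 35.4 CPM in WT (log2 fold change 0.78, edgeR adjusted p = 0.00597). The call of Clasp1 was lost without HD replicate 2 (adjusted p = 0.0954) and without the WT mouse of 8 weeks (adjusted p = 0.121). The sources used here do not say whether reads were counted by strand, so reads of the antisense RNA and of Clasp1 may not be separable. Mboat2, an acyltransferase that remodels membrane phospholipids, was at 44.6 and 41.7 CPM in HD and at 10.01 and 7.51 CPM in WT (log2 fold change 2.30, edgeR adjusted p = 8.04e-08). Megf9, a membrane protein with EGF-like repeats, was at 23.3 and 13.1 CPM in HD and at 3.23 and 3.88 CPM in WT (log2 fold change 2.35, edgeR adjusted p = 2.73e-05). Its HD replicates differed more than its WT libraries, without overlap of the groups.

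The remaining genes among the 15 largest increases were at under 15 CPM in each of the 4 libraries. They were Hook1, an adaptor that links cargo to dynein on microtubules, Srcap, an ATPase that exchanges histone H2A.Z into chromatin, Dhx29, a helicase of translation initiation, Pip5k1b, a phosphatidylinositol phosphate kinase, the zinc finger gene Zfp605, Pet117, an assembly factor of cytochrome oxidase, Smim10l1, Gm9833 and Zim3. Srcap may serve as an example, at 14.6 and 11.2 CPM in HD and at 2.56 and 1.73 CPM in WT (log2 fold change 2.58, edgeR adjusted p = 2.25e-05). Hook1 was at 12.14 and 9.46 CPM in HD and at 1.16 and 2.06 CPM in WT (log2 fold change 2.74, edgeR adjusted p = 0.000117). Zim3 is annotated antisense to Usp29, and Hook1, Srcap, Pet117 and Pip5k1b each overlap another annotated gene, whose reads could have been counted with them. All 15 of the largest increases kept their call with each of the 4 libraries left out in turn.

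**Figure D2:**
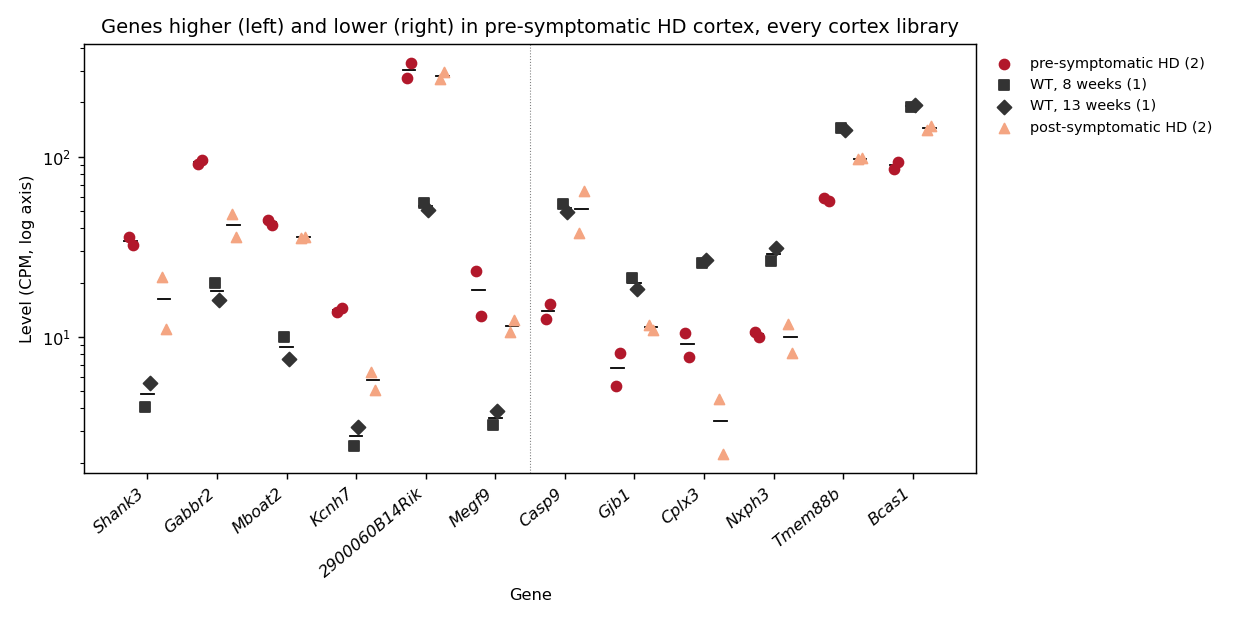
Level of 12 genes (vertical, CPM on a log axis) in every cortex library, with short lines at group means. For the 6 genes on the left the pre-symptomatic HD libraries (red circles) lie above both WT libraries (black), and for the 6 on the right they lie below, with no overlap in any of them.

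The decreases were led in significance by genes of oligodendrocytes. Tmem88b, a membrane protein gene expressed in myelinating oligodendrocytes, lies on chromosome 4 from 155781591 to 155785874 on the minus strand. Tmem88b was at 58.7 and 56.8 CPM in HD and at 143 and 140 CPM in WT, a log2 fold change of -1.30 (standard error 0.12, edgeR adjusted p = 2.58e-07). Bcas1, a marker of oligodendrocytes that are forming myelin, was at 85.6 and 93.5 CPM in HD and at 188 and 195 CPM in WT. In both genes every HD value was below every WT value by a wide margin, and for Bcas1 the log2 fold change was -1.10 (edgeR adjusted p = 1.23e-06). Trf, the iron carrier transferrin, which oligodendrocytes make in brain, was at 42.8 and 53.1 CPM in HD and at 93.3 and 113 CPM in WT (log2 fold change -1.11, edgeR adjusted p = 2.19e-05). Gjb1, a gap junction protein of oligodendrocytes, was at 5.31 and 8.08 CPM in HD and at 21.3 and 18.5 CPM in WT (log2 fold change -1.57, edgeR adjusted p = 0.000382). Fa2h, the enzyme that hydroxylates the fatty acids of myelin lipids, was at 8.98 and 7.98 CPM in HD and at 19.5 and 18.8 CPM in WT (log2 fold change -1.18, edgeR adjusted p = 0.00369). The call of Fa2h was lost without HD replicate 2 (adjusted p = 0.0666). These 5 genes were among the 15 largest decreases.

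Of the 10 oligodendrocyte markers, 6 were called lower and 0 higher, beside 2.94% and 7.19% of all genes tested, and all 10 had a negative log2 fold change with a median of -0.61. Mbp, myelin basic protein, was at 938 and 1056 CPM in HD and at 1865 and 1841 CPM in WT (log2 fold change -0.89, standard error 0.11, edgeR adjusted p = 1.32e-05). Its mean HD level was 0.538 of the WT mean, with both HD libraries below both WT libraries. Ermn, a cytoskeletal protein of mature oligodendrocytes, was at 27.4 and 33.9 CPM in HD and at 60.1 and 66.7 CPM in WT (log2 fold change -1.05, edgeR adjusted p = 0.00013). Mobp, a compact myelin protein, was at 64.6 and 71.4 CPM in HD and at 104 and 106 CPM in WT (log2 fold change -0.63, edgeR adjusted p = 0.00165). Cnp, a phosphodiesterase of non-compact myelin, was at 127 and 152 CPM in HD and at 234 and 188 CPM in WT (log2 fold change -0.59, edgeR adjusted p = 0.00378). Mal, a proteolipid of myelin transport, was the smallest of the 6 (log2 fold change -0.40, edgeR adjusted p = 0.0469). Mbp and Ermn kept their call with each library left out in turn. Mobp lost it without HD replicate 1 (adjusted p = 0.0632), Cnp without that replicate or the WT mouse of 8 weeks (0.126 and 0.129), and Mal without any of HD replicate 1, HD replicate 2 or that WT mouse (0.263, 0.21 and 0.617). Without the WT mouse of 8 weeks the median of the list was -0.41. Mog, Mag, Opalin and Cldn11 did not pass, with log2 fold changes between -0.29 and -0.63. Nkx6-2, a homeobox factor of oligodendrocytes, was the only one of the 27 developmental homeobox factors tested that was called (log2 fold change -0.61, edgeR adjusted p = 0.00608), and it lost the call without either HD replicate or the WT mouse of 8 weeks (0.0855, 0.0791 and 0.27).

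**Figure D3:**
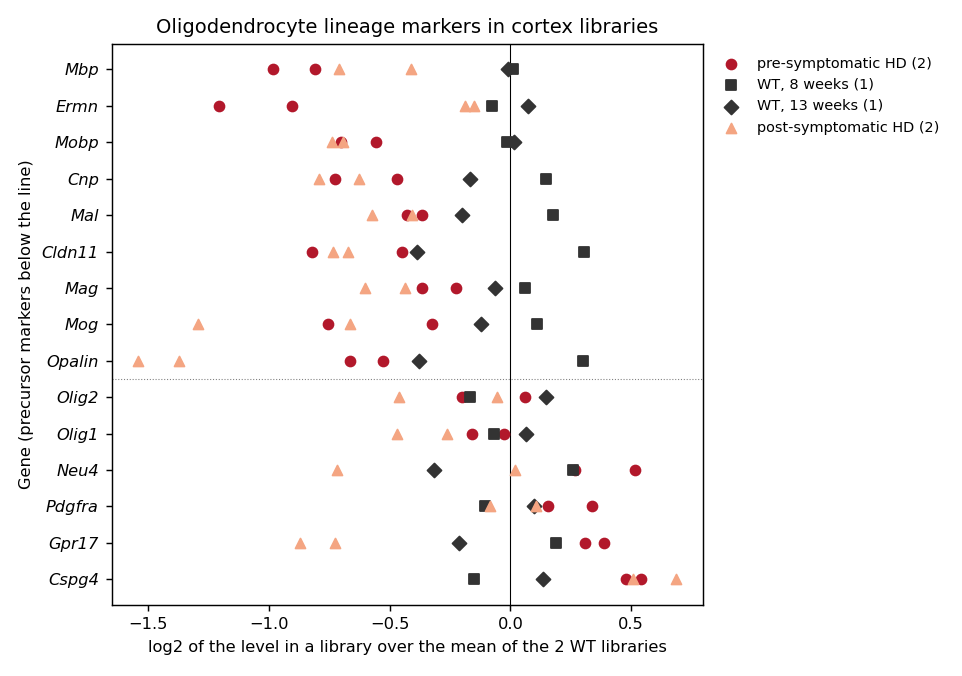
Log2 of the level in each cortex library over the mean of the 2 WT libraries (horizontal) for 9 oligodendrocyte markers (above the dotted line) and precursor markers (below). All pre-symptomatic HD values (red) of these oligodendrocyte markers lie to the left of 0, whereas those of the precursor markers lie on both sides of it.

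Markers of precursor cells were not called. Of the 6 oligodendrocyte precursor markers, 0 were called in either direction, beside 10.1% of all genes, and their median log2 fold change was 0.30. Pdgfra, the growth factor receptor of precursors, was at 13.6 and 15.4 CPM in HD and at 11.3 and 13.0 CPM in WT. Cspg4, the NG2 proteoglycan, was at 8.06 and 8.40 CPM in HD and at 5.21 and 6.35 CPM in WT. Olig1 and Olig2, lineage factors found in precursors and mature cells, had log2 fold changes of -0.09 and -0.06. The sum of the 6 markers was between 146 and 158 CPM in HD and between 143 and 153 CPM in WT, while that of the 10 oligodendrocyte markers was between 2352 and 2686 CPM in HD and between 4133 and 4397 CPM in WT. The difference between the lists was not tested.

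Oligodendrocyte genes are bound in their regulatory regions by SOX10, a factor of the whole lineage, and by MYRF, which is needed for myelination. The 215 bases before the GENCODE start of Mobp and of Cnp are given because both genes were lower and their promoters held matches to the letters searched (sequence from RefSeq, GRCm38.p6, plus strand). Capitals mark ACAAAG or its reverse complement, the core that SOX proteins bind, and CTGGCAC or its reverse complement, the core of the MYRF site. The Mobp sequence is chr9:120149492-120149706 and the Cnp sequence is chr11:100574689-100574903.
Mobp: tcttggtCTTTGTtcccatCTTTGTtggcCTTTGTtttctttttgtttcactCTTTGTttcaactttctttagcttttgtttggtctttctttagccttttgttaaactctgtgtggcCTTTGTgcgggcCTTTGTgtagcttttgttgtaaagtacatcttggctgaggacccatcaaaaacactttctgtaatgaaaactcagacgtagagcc
Cnp: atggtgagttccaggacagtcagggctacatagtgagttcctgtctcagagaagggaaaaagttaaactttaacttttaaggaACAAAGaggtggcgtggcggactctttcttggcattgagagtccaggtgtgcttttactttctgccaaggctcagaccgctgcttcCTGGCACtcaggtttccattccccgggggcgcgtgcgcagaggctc
Mobp held 6 matches to ACAAAG, and Cnp held 1 match to ACAAAG and 1 to CTGGCAC. None of these matches overlapped another. Over windows from 250 bases before to 50 bases after the RefSeq start, searched on both strands, 18.7% of 32851 mouse promoters held ACAAAG and 5.01% held CTGGCAC. The SOX core was found in 18.9% of 296 genes called lower and in 15.9% of 742 genes called higher, beside 16.5% of 10608 tested genes with a listed promoter. The MYRF core was found in 6.08%, 5.39% and 6.19% of the same sets. Of the oligodendrocyte markers called lower, 4 had a listed promoter, of which 2 held the SOX core and 1 the MYRF core, and the promoters shown were picked from these for their matches.

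Markers of other glia and of vessels had few calls. Of 9 astrocyte markers, 2 were higher (22.2%, beside 7.19% of all genes) and 1 lower (11.1%, beside 2.94%) with a median of 0.03. Slc1a2, the main astrocytic glutamate transporter, was at 3616 and 3586 CPM in HD and at 2353 and 2279 CPM in WT (log2 fold change 0.64, edgeR adjusted p = 0.000178). Aqp4 and Sox9 had smaller differences in opposite directions, and each lost its call without HD replicate 2 (adjusted p = 0.507 and 0.0722) or without the WT mouse of 8 weeks (0.256 and 0.479). Aqp4 also lost it without the WT mouse of 13 weeks (0.0718), and Sox9 without HD replicate 1 (0.36). Of 12 microglia markers only the complement gene C1qc was called higher, and it lost the call without HD replicate 1 (adjusted p = 0.0828) or without the WT mouse of 8 weeks (0.124). Of 12 endothelial and mural markers only Rgs5, a pericyte gene, was called, at 28.6 and 27.2 CPM in HD and 13.3 and 14.7 CPM in WT (log2 fold change 0.99, edgeR adjusted p = 0.00222). Blood and ependymal markers had 0 calls. Blood markers summed to between 815 and 2130 CPM in HD and between 778 and 1032 CPM in WT. Of 6 thalamus and 5 hippocampus markers, the nuclear receptor Rora and the zinc finger factor Zbtb20 were called higher, and both are also expressed in cortex. Zbtb20 lost its call without HD replicate 2 (adjusted p = 0.0744) or the WT mouse of 8 weeks (0.112).

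Genes of the postsynaptic side of glutamate synapses held several of the increases. Of 38 glutamate receptors and postsynaptic scaffolds tested, 10 were higher (26.3%, beside 7.19% of all genes) and 0 lower, and the median log2 fold change was 0.25. They were Shank3, Shank2, Dlgap2, Homer1 and Homer2 among the scaffolds, the kinase Camk2a, the ionotropic subunits Gria2 and Grin2b, and the metabotropic receptors Grm3 and Grm5. Dlgap2, which links the scaffold Dlg4 to SHANK proteins, was at 105 and 120 CPM in HD and at 52.9 and 53.0 CPM in WT (log2 fold change 1.09, edgeR adjusted p = 8.79e-06). Camk2a, the calcium-dependent kinase of plasticity, was at 4196 and 4171 CPM in HD and at 2894 and 2567 CPM in WT (log2 fold change 0.62, edgeR adjusted p = 0.000294). Shank2 was at 7.55 and 9.68 CPM in HD and at 1.24 CPM in each WT library (log2 fold change 2.79, edgeR adjusted p = 0.000511). Shank3, Shank2, Dlgap2 and Camk2a kept their call with each library left out in turn. The other 6 had log2 fold changes between 0.41 and 0.78 and lost their call without at least 1 library, namely Grm3 without HD replicate 2 (adjusted p = 0.0722), Gria2 without HD replicate 1 (0.0954), Homer1 without either HD replicate or the WT mouse of 13 weeks (0.134, 0.0674 and 0.0741), Homer2 without either HD replicate or the WT mouse of 8 weeks (0.117, 0.0838 and 0.175), Grin2b without either HD replicate or the WT mouse of 13 weeks (0.053, 0.191 and 0.134) and Grm5 without either HD replicate or the WT mouse of 8 weeks (0.178, 0.125 and 0.253). Dlg4 itself, at a mean of 728 CPM in HD and 608 CPM in WT, did not pass. Most of these genes are long, and with each library's trend over the genomic span of genes removed 6 of the 10 kept their call and the median of the list was 0.14.

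On the presynaptic side, 5 of 30 genes of vesicle fusion were higher (16.7%, beside 7.19% of all genes) and 4 lower (13.3%, beside 2.94%). Rims1, a scaffold of the active zone, was at 88.0 and 86.5 CPM in HD and at 24.7 and 17.8 CPM in WT (log2 fold change 2.04, standard error 0.20, edgeR adjusted p = 1.24e-06). Syp and Syt2, proteins of the vesicle membrane, had log2 fold changes of 0.63 and 0.89, and Rims1, Syp and Syt2 kept their call with each library left out. The 4 lower genes were Rab3a, Vamp1, Vamp2 and the vesicular glutamate transporter Slc17a7, with log2 fold changes between -0.51 and -0.41, and 0 of the 4 kept their call in all of these fits. The list thus held genes of the same machinery in both directions, and its median was -0.04.

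Ion channels were likewise called in both directions. All genes tested had 7.19% called higher and 2.94% lower, so that 71.0% of all calls were higher. Of 48 potassium channel subunits tested, 10 were higher (20.8%) and 4 lower (8.33%), and Kcnh7, Kcna2, Kcnc1 and Kcnh1 among the higher and Kcna6 among the lower kept their call with each library left out. Kcna2, an axonal channel, was at 311 and 305 CPM in HD and at 217 and 205 CPM in WT (log2 fold change 0.55, edgeR adjusted p = 0.00178). Kcna6, of the same family, was at 182 and 179 CPM in HD and at 280 and 267 CPM in WT (log2 fold change -0.60, edgeR adjusted p = 0.000782). Of 9 sodium channel subunits, 3 were higher and 1 lower, with Scn1a at 233 and 221 CPM in HD and at 127 and 118 CPM in WT (log2 fold change 0.89, edgeR adjusted p = 1.79e-05). Of 37 calcium channel, pump and CaM kinase genes, 8 were higher (21.6%) and 1 lower, and only Cacna1e, the pore of the R-type channel, kept its call with each library left out (log2 fold change 0.90, edgeR adjusted p = 0.00062). With the span trend removed, 7 of the 10 potassium, 1 of the 3 sodium and 4 of the 8 calcium calls were left. The medians of the 3 lists, 0.04, 0.11 and 0.07, turned to -0.11, -0.03 and -0.08 with library totals in place of TMM, and those of potassium and calcium genes to -0.03 and -0.05 with the span trend removed. Of 37 genes of cAMP, phosphodiesterase and RGS signalling, 3 were higher and 1 lower, with a median of -0.10, and of these calls only that of Rgs5 held in all fits with a library left out. Of 23 clustered protocadherins tested, 3 were higher and 0 lower, none of them in all of these fits, and these genes share exons, so their reads cannot be assigned to a member with certainty.

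Genes of inhibitory signalling were divided. Of 20 genes of GABA synthesis, transport and receptors, 3 were higher (15%, beside 7.19% of all genes) and 2 lower (10%, beside 2.94%). Gphn, the scaffold gephyrin of inhibitory synapses, was at 51.0 and 49.0 CPM in HD and at 29.2 and 26.9 CPM in WT (log2 fold change 0.83, edgeR adjusted p = 0.00162), beside the increase of Gabbr2 described above. Slc32a1, the vesicular transporter of GABA, was at 88.4 and 87.6 CPM in HD and at 143 and 141 CPM in WT (log2 fold change -0.69, edgeR adjusted p = 0.00039). Among 9 inhibitory neuron markers, Slc32a1 and Sst, the neuropeptide somatostatin, were lower and 0 were higher, with a median of -0.17. Sst was at 256 and 301 CPM in HD and at 423 and 382 CPM in WT (log2 fold change -0.53, edgeR adjusted p = 0.00402), and the call was lost without HD replicate 1 (adjusted p = 0.136) or the WT mouse of 8 weeks (0.0724). Of 20 neuropeptides and granins, Scg2 and Scg3 were higher and Sst and Penk lower with a median of -0.23, and 0 of these 4 calls held with every library left out.

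The markers of excitatory neurons did not move together. Nrn1, an activity-regulated neuritin, was at 255 and 248 CPM in HD and at 108 and 80.6 CPM in WT (log2 fold change 1.42, standard error 0.13, edgeR adjusted p = 5.81e-07), and Camk2a was higher as described. Slc17a7 and Tbr1, a factor of deep layers, were lower, with log2 fold changes of -0.51 and -0.47 (edgeR adjusted p = 0.00596 and 0.0101). Both lost their call without HD replicate 2 (adjusted p = 0.17 and 0.205), and so did Slc17a7 without the WT mouse of 8 weeks (0.0794) and Tbr1 without that of 13 weeks (0.116). Cplx3 and Nxph3, which mark deep layer neurons, were among the largest decreases. Cplx3, a complexin, was at 10.5 and 7.76 CPM in HD and at 25.8 and 26.7 CPM in WT (log2 fold change -1.52, edgeR adjusted p = 0.000839). Nxph3, a neurexin ligand, was at 10.6 and 9.997 CPM in HD and at 26.5 and 30.9 CPM in WT (log2 fold change -1.48, edgeR adjusted p = 0.000217). Of 23 cortical layer and projection neuron factors, Cux1 and Cux2, which mark upper layers, were called higher and Tbr1 and Foxp2, which mark deep layers, lower. This is 8.7% in each direction, beside 7.19% of all genes higher and 2.94% lower. Of these calls, 0 of the 2 higher and 2 of the 2 lower were left with the span trend removed. The median of the list was -0.08, and 0 of the 4 calls held with every library left out (adjusted p of the lost calls of Cux1, Cux2 and Foxp2 between 0.0715 and 0.435).

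Some striatal genes were low in HD cortex, and here the WT libraries differed. Of 11 markers of striatal projection neurons tested, 4 were lower (36.4%, beside 2.94% of all genes) and 0 higher (beside 7.19%). The median log2 fold change was -0.67. Drd1, a dopamine receptor that is also expressed in cortex, was at 24.5 and 25.9 CPM in HD and at 49.1 and 58.2 CPM in WT (log2 fold change -1.09, edgeR adjusted p = 0.000829), and it was the only one of the 4 to keep its call with every library left out. Syndig1l was at 1.84 and 1.81 CPM in HD, at 4.22 CPM in the WT mouse of 8 weeks and at 15.9 CPM in that of 13 weeks. Adora2a was at 0.714 and 1.38 CPM in HD, and at 2.40 and 7.76 CPM in the same WT mice. The WT mouse of 13 weeks was highest in both, and without it the log2 fold change of Syndig1l moved from -2.46 (edgeR adjusted p = 0.0249) to -1.21 (adjusted p = 0.285), that of Adora2a from -2.27 (0.0267) to -1.19 (0.531) and the median of the list to -0.04. Syndig1l and Adora2a also lost their calls without HD replicate 1 (adjusted p = 0.257 and 0.213) or 2 (0.282 and 0.0885), as did Penk, an opioid precursor, without either HD replicate (0.163 and 0.0993) or without the WT mouse of 13 weeks (0.155). The most abundant members, Ppp1r1b and Rasd2, did not pass, with means of 117 and 70.0 CPM in HD and of 128 and 70.0 CPM in WT.

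Activity-induced immediate early genes had a median log2 fold change of -0.60, but of 25 genes 1 was called higher and 1 lower. This is 4% in each direction, beside 7.19% of all genes higher and 2.94% lower. Ier5 was at 178 and 207 CPM in HD and at 290 and 351 CPM in WT (log2 fold change -0.73, edgeR adjusted p = 0.000523). The HD replicates differed in this group. Arc was at 40.8 and 206 CPM in HD and at 240 and 254 CPM in WT, and Fos was at 5.31 and 26.9 CPM in HD and at 28.4 and 29.5 CPM in WT. Only HD replicate 1 was far below WT, and without it the median of the list was -0.08.

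Of 50 histone-modifying enzymes and Polycomb genes, which act on chromatin, 8 were higher (16.0%, beside 7.19% of all genes) and 2 lower (4%, beside 2.94%), with a median log2 fold change of 0.11 that turned to -0.03 with library totals in place of TMM. Kdm1a, the histone demethylase LSD1, was at 45.9 CPM in each HD library and at 17.9 and 17.2 CPM in WT (log2 fold change 1.39, standard error 0.19, edgeR adjusted p = 2.93e-05). Suz12, a core subunit of Polycomb complex PRC2, was at 46.1 and 37.2 CPM in HD and at 18.9 and 19.2 CPM in WT (log2 fold change 1.13, edgeR adjusted p = 0.000197). These 2 genes kept their call with each library left out. The other higher genes were Kat6a, Hdac2, Kmt2a, Setd2, Kdm5b and Crebbp. Kat6a and Hdac2 lost their call without HD replicate 2 (adjusted p = 0.0663 and 0.0524) and Kmt2a without the WT mouse of 8 weeks (0.0594), and with the span trend removed 6 of the 8 kept their call.

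A few noncoding RNAs were called higher in HD. Malat1, an abundant noncoding RNA kept in the nucleus, was at 5179 and 4773 CPM in HD and at 1719 and 2639 CPM in WT (log2 fold change 1.19, standard error 0.18, edgeR adjusted p = 0.00329). Rn45s had a log2 fold change of 1.54 (edgeR adjusted p = 1.01e-08). Kcnq1ot1, an imprinted antisense RNA, had one of 0.73 (edgeR adjusted p = 0.00817), and it lost its call without HD replicate 2 (adjusted p = 0.149) or the WT mouse of 8 weeks (0.184). Of 13 nuclear and structural noncoding RNAs tested, these 3 were called higher (23.1%, beside 7.19% of all genes) and 0 lower (beside 2.94%). A negative log2 fold change was found for 5 of the 13. Of 121 small nucleolar RNAs in the files 7 passed the filter, and Snora81 and Snord49b were called higher. Snora81, which guides modification of ribosomal RNA and lies inside Eif4a2, was at 9.39 and 11.6 CPM in HD and at 1.57 and 2.97 CPM in WT (log2 fold change 2.20, edgeR adjusted p = 0.000154). Snord49b was at 0 in the WT mouse of 13 weeks, and its call was lost with any of the 4 libraries left out (adjusted p between 0.13 and 0.238).

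The genes called higher and lower differed in size and composition. The median genomic span was 58.2 kb for genes called higher, 16.7 kb for genes called lower and 24.6 kb for all genes tested, and the longest transcript had a median of 5.18, 2.72 and 3.41 kb. The median number of exons was 12, 6 and 8, and the median GC content of the transcript was 46.2%, 52.1% and 49.8%. From the shortest to the longest quintile of genes by span, the share called higher was 2.64%, 3.79%, 5.85%, 8.59% and 15.1%, and the share called lower was 4.19%, 3.54%, 3.07%, 2.17% and 1.80%. The same order held over transcript length, from 2.71% to 17.4% called higher, and the reverse order over GC content, from 12.7% to 2.63%. The median log2 fold change of all genes moved from -0.11 in the shortest quintile by span to 0.14 in the longest. In striatum, a comparison that shares no library with this one, the medians were -0.06 and 0.11. Rn45s and Malat1 were higher in the same libraries. The part of RNA quality in these trends was not tested. With the span trend removed from each library, 844 genes were higher and 431 lower, of which 788 and 280 were among those called above. With the trend over GC content removed, the numbers were 909 and 490, of which 834 and 310 were shared.

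**Figure D4:**
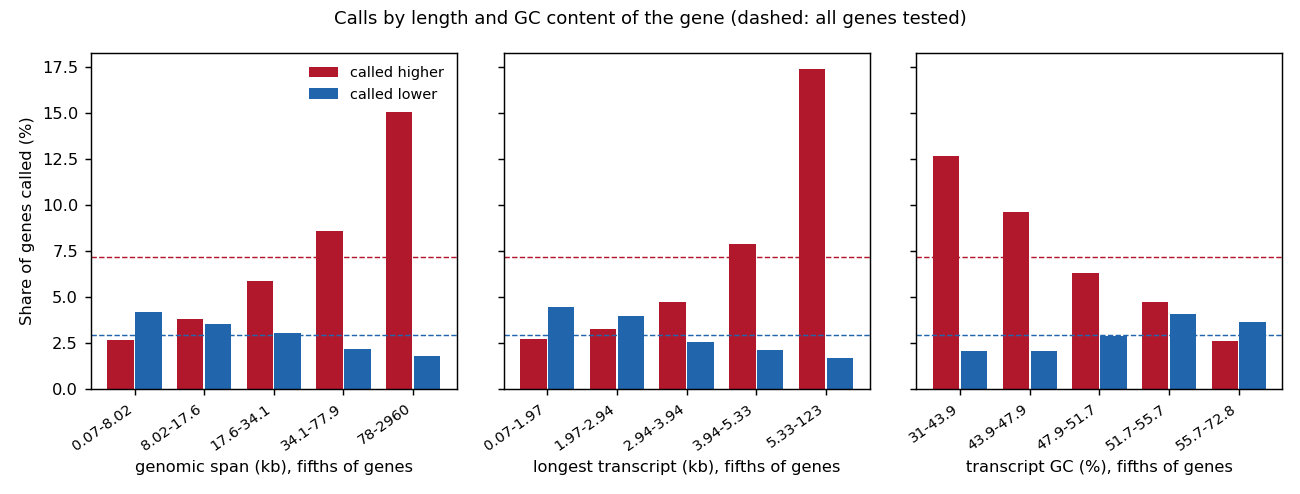
Share of genes called higher (red) and lower (blue) in pre-symptomatic HD cortex (vertical, %) by quintiles of genes ordered by genomic span, longest transcript and transcript GC content (horizontal, range of each quintile), with dashed lines at the shares of all genes tested. The share called higher rises from 2.64% to 15.1% over span and from 2.71% to 17.4% over transcript length, and goes from 12.7% to 2.63% over GC content.

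Short housekeeping genes held many of the decreases. All genes tested had 2.94% called lower and 7.19% higher. Of 80 cytosolic ribosomal protein genes, 18 were lower (22.5%) and 1 higher (1.25%), 72 had a negative log2 fold change, and the median was -0.27. Rpl5 was at 171 and 174 CPM in HD and at 253 and 271 CPM in WT (log2 fold change -0.60, edgeR adjusted p = 0.000767). Rps27a was at 148 and 149 CPM in HD and at 214 and 222 CPM in WT (log2 fold change -0.55, edgeR adjusted p = 0.00168). Both HD values lay below both WT values in these genes, and they were the only 2 of the 18 to keep their call with every library left out. With the span trend removed, 3 of the 18 kept their call. Of 84 nuclear-encoded subunits of oxidative phosphorylation, 17 were lower (20.2%) and 2 higher, 67 had a negative log2 fold change, and the median was -0.21. Sdhb, the iron-sulfur subunit of complex II, was at 246 and 250 CPM in HD and at 417 and 343 CPM in WT (log2 fold change -0.62, edgeR adjusted p = 0.00124). Cox5b, a subunit of complex IV, went the other way, at 256 and 164 CPM in HD and at 94.7 and 82.8 CPM in WT (log2 fold change 1.24, edgeR adjusted p = 0.00104). Sdhb was the only one of the 17 to keep its call with every library left out, and 8 of the 17 kept it with the span trend removed. Of 38 proteasome subunits, 4 were lower (10.5%) and 1 higher, with a median of -0.14. Pseudogenes of ribosomal protein genes are near copies of them, so how these reads were assigned is uncertain.

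**Figure D5:**
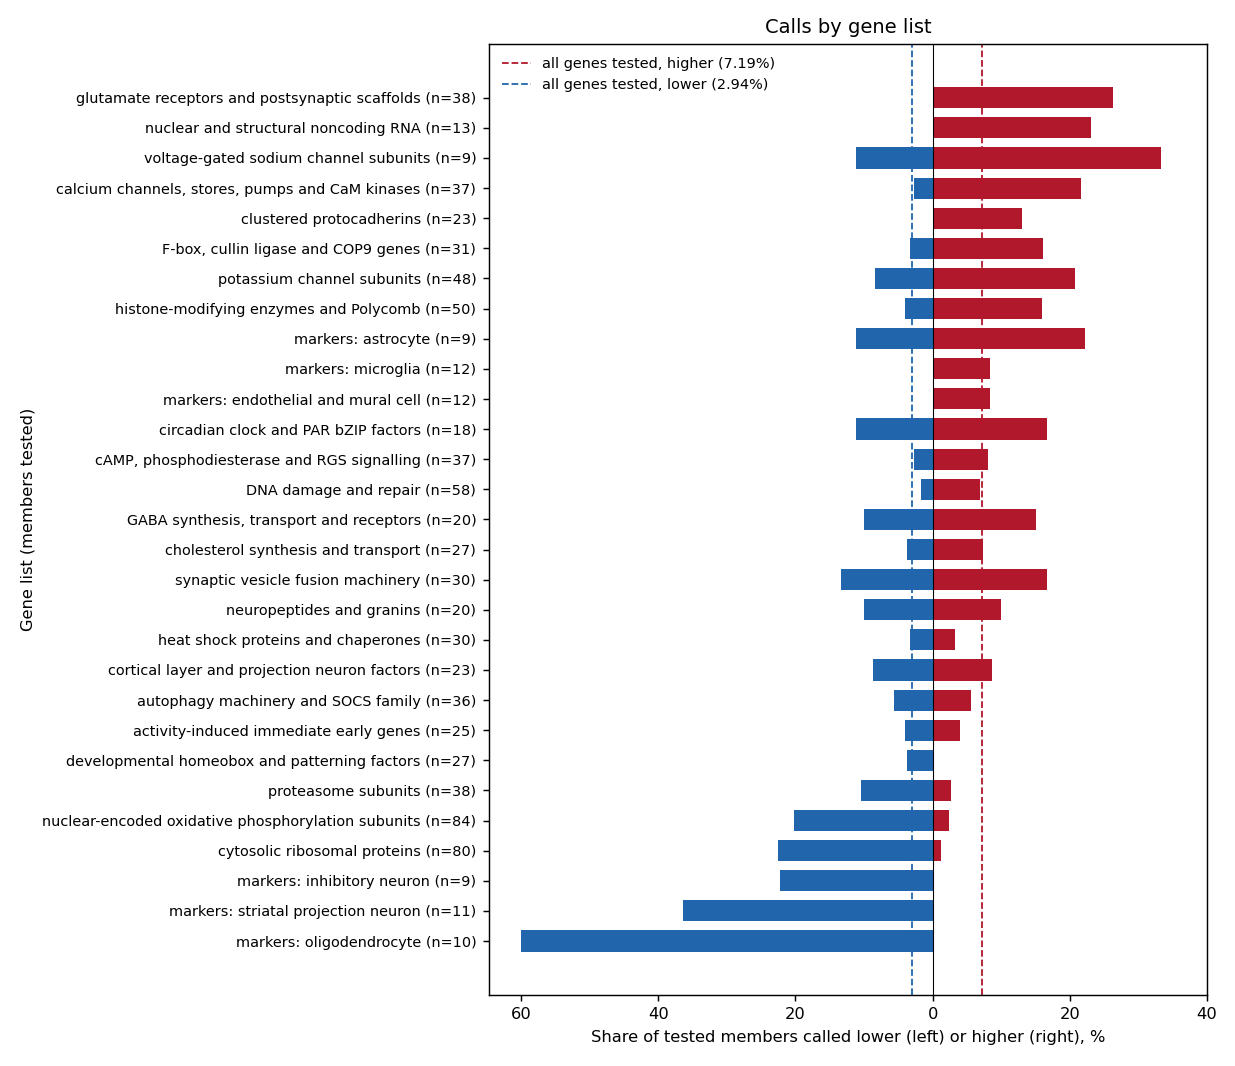
Share of the tested members of each gene list called higher (red, right) or lower (blue, left) in pre-symptomatic HD cortex (horizontal, %), with dashed lines at the shares of all genes tested. Glutamate receptors and scaffolds (26.3% higher) stand at the top and oligodendrocyte markers (60% lower) at the bottom. Lists are ordered by the share higher less the share lower, and those with under 9 tested members are left out.

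The study from which these libraries come concerns DNA damage and the ubiquitin ligase subunit FBXW7. Fbxw7 was at 705 and 687 CPM in HD and at 619 and 589 CPM in WT, and this difference did not pass the test (log2 fold change 0.21, standard error 0.10, edgeR adjusted p = 0.239). Usp28, a deubiquitinase that counters FBXW7, was at 3.27 and 5.21 CPM in HD and at 6.12 and 8.50 CPM in WT (log2 fold change -0.79, standard error 0.39, edgeR adjusted p = 0.235). Cops6, a subunit of the COP9 signalosome, had a log2 fold change of 0.10 (standard error 0.15, edgeR adjusted p = 0.746), which turned to -0.04 with library totals in place of TMM. At the low level of Usp28 a difference of its size could not be told from the spread between libraries. From a heatmap of its RNA-seq the study reports USP28 as downregulated in both striatum and cortex, and it names no stage there. Of 58 DNA damage and repair genes tested, 4 were higher (6.90%) and 1 lower (1.72%), close to the shares of all genes, and the median was -0.03. The 4 were Cdkn1a, the cell cycle inhibitor p21, Mlh3, a mismatch repair protein, and Nbn and Rad50, which act together at double-strand breaks, and the lower was Cdkn2d. Cdkn1a was at 41.1 and 68.1 CPM in HD and at 27.2 and 26.1 CPM in WT (log2 fold change 1.03, edgeR adjusted p = 0.0028), and without HD replicate 2 it was not called (adjusted p = 0.161). Mlh3 was at 26.5 and 23.2 CPM in HD and at 13.6 and 12.13 CPM in WT (log2 fold change 0.95, edgeR adjusted p = 0.00397), and was not called without HD replicate 1 (adjusted p = 0.0774). Nbn was at 15.5 CPM in each HD library and at 8.27 and 7.59 CPM in WT (log2 fold change 0.97, edgeR adjusted p = 0.0163), and Rad50 at 37.9 and 49.6 CPM and at 24.98 and 29.9 CPM (log2 fold change 0.67, edgeR adjusted p = 0.024). None of the 5 calls held with every library left out, with the adjusted p of Nbn and Cdkn2d between 0.0789 and 0.312 over these fits and that of Rad50 at 0.349 without HD replicate 2 and 0.232 without the WT mouse of 8 weeks. Trp53, Polb, Socs2 and mouse Htt did not pass, with log2 fold changes of 0.85, -0.24, -0.24 and -0.04. The 3′ end of Htt lies outside the transgene, so its count says nothing of transgene expression.

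Casp9 encodes the initiator caspase of the mitochondrial pathway of apoptosis. It had the second largest decrease among called genes with a mean of at least 5 CPM. It lies on chromosome 4 from 141793612 to 141815976 on the plus strand and overlaps Cela2a and Ctrc on the opposite strand. Casp9 was at 12.6 and 15.1 CPM in HD and at 54.6 and 49.2 CPM in WT (log2 fold change -1.91, standard error 0.23, edgeR adjusted p = 3.68e-05). The mean HD level was 0.266 of the WT mean. The other large decreases were Serpinb1a, a serpin, Ankrd39, Dcbld1, the zinc finger gene Rbak, Myo1d, a myosin, and Evi2a, with log2 fold changes between -1.13 and -1.71. All 6 lost their call without at least 1 library, with an adjusted p of 0.0524 for Serpinb1a without the WT mouse of 13 weeks, 0.126 and 0.15 for Ankrd39 without HD replicate 1 and the WT mouse of 8 weeks, 0.175 and 0.115 for Rbak without HD replicate 2 and that mouse, and between 0.0527 and 0.271 for Dcbld1, Myo1d and Evi2a.

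Genes of protein turnover and stress were called in both directions. Of 31 F-box, cullin and COP9 genes, 5 were higher (16.1%, beside 7.19% of all genes) and 1, Nedd8, lower (3.23%, beside 2.94%), and 0 of these calls held with every library left out. Of 36 autophagy and SOCS genes, 2 were higher and 2 lower. Rb1cc1, a subunit of the kinase complex that starts autophagosomes, was at 164 and 185 CPM in HD and at 110 and 102 CPM in WT (log2 fold change 0.72, edgeR adjusted p = 0.000222), and Wipi2, which acts in the next step, was at 42.5 and 40.7 CPM in HD and at 19.7 and 19.6 CPM in WT (log2 fold change 1.09, edgeR adjusted p = 0.000297). Both kept their call with each library left out, whereas the lower genes Atg4b and Lamp1 did not (adjusted p between 0.0716 and 0.284). Of 30 heat shock proteins and chaperones, Hspa4l was called higher and Cryab lower. Cryab lost its call without HD replicate 1 (adjusted p = 0.078) and Hspa4l without that replicate or the WT mouse of 8 weeks (0.134 and 0.0647). Of 27 cholesterol genes, Abca1, the exporter of cholesterol, was at 21.4 and 22.2 CPM in HD and at 10.7 and 10.5 CPM in WT (log2 fold change 1.04, edgeR adjusted p = 0.00143), and Hmgcs1 and Fdps of the synthesis pathway were called in opposite directions and lost their calls with libraries left out (adjusted p between 0.0541 and 0.601). Of 18 circadian genes, 3 were higher and 2 lower, of which only Rora held in all of these fits, and its level was 223 and 242 CPM in HD and 158 and 148 CPM in WT.

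Striatum of the same stages gave values from other libraries, though perhaps from the same mice. The difference in Rn45s between HD and WT libraries was present there too. It accounted for 14.4% and 13.7% of counts in HD striatum, and for 4.32% and 5.62% in WT striatum of 8 and 13 weeks. The part of this shared difference in the agreement between regions was not tested. Of the 1007 genes higher in cortex, 1003 were tested in pre-symptomatic HD against WT striatum, and 860 of them had a positive log2 fold change there (85.7%, beside 50.2% of all genes), with a median of 0.56. Of the 412 lower genes, 269 of 411 had a negative one (65.5%, beside 49.8%), with a median of -0.16. Striatum had 0 genes called by edgeR, with 1656 at an unadjusted p under 0.05. HD replicate 2 of striatum held far more oligodendrocyte RNA than the other libraries of this striatum comparison, with Mbp at 9357 CPM, beside 1425 CPM in replicate 1 and 2361 and 2331 CPM in the WT libraries. It also held Shox2 at 433 CPM, beside 0 in replicate 1 and in both WT striatum libraries. The 6 thalamus markers had a median log2 fold change of 3.17 in striatum with this replicate and of 0.35 without it. Its make-up thus differed in more than oligodendrocyte RNA. Without it, 86.8% of the higher and 80.0% of the lower genes had the same direction, beside 48.2% and 51.8% of all genes. The antisense RNA 2900060B14Rik was at 643.8 and 359 CPM in HD striatum and at 56.2 and 87.2 CPM in WT striatum, and Mboat2 was at 39.8 and 38.2 CPM and at 8.93 and 11.9 CPM. Both were higher in HD in both regions. Shank3 was not, at 24.7 and 25.9 CPM in HD striatum and at 66.0 and 19.4 CPM in WT striatum. The test of cortex less striatum called 0 genes by edgeR, with 1165 at an unadjusted p under 0.05, while DESeq2 called 16, so no gene above is shown to be particular to cortex. For Shank3 this difference was 3.58 on the log2 scale (edgeR adjusted p = 0.619). The largest differences with a low p included Spcs3, Lmtk2, Galnt2, 6030419C18Rik and Tdrd7 towards cortex and Faap100, Tprkb, Sbf1, Gpha2 and Pnoc towards striatum, each with an edgeR adjusted p of 0.619. Without replicate 1 of HD striatum, which leaves the replicate rich in oligodendrocyte RNA, the test called 1362 genes.

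The later stage was compared by a contrast between the HD libraries in the fit of the 6 cortex libraries. The WT libraries entered this contrast only through the filter, the scaling and the estimate of spread. Between post-symptomatic and pre-symptomatic HD cortex, 710 genes were higher (5.07%) and 1613 lower (11.5%) after symptom onset by edgeR's quasi-likelihood test. The count was 1376 and 1227 without pre-symptomatic replicates 1 and 2. Both this contrast and the comparison with WT use the pre-symptomatic libraries, so the values are set side by side only. Gabbr2 was at 47.8 and 35.6 CPM after onset, Shank3 at 21.4 and 11.03 CPM and Kcnh7 at 6.38 and 5.09 CPM, all between the pre-symptomatic and the WT levels. Their lists as a whole lay lower. Of 38 glutamate receptors and scaffolds, 3 were called higher and 18 lower than WT after onset (median -0.23). Of 48 potassium channel subunits, 1 was higher and 29 lower. All 14003 genes had 1556 higher and 1993 lower. Of the 1007 genes higher before onset, 619 were called higher than WT after it and 70 lower. Casp9 was at 37.6 and 64.5 CPM after onset, a range that includes both WT values. Tmem88b, at 96.8 and 98.4 CPM, and Bcas1, at 140 and 148 CPM, were also between the pre-symptomatic and the WT levels, as was Mbp, at 1133 and 1391 CPM. 2900060B14Rik was at 270.26 and 294 CPM and Mboat2 at 35.5 and 35.9 CPM after onset, and neither passed in this contrast (edgeR adjusted p = 0.635 and 0.344). Fbxw7 was at 294 and 296 CPM after onset (log2 fold change -1.24, edgeR adjusted p = 8.44e-09). This is opposite in direction to the study, which reports from its RNA-seq of R6/2 brain that FBXW7 rose significantly with onset. The study names no region or test for that statement, and the value here is for cortex only. It also reports, by qPCR in striatal cell lines, a higher FBXW7 mRNA level in Q111 than in Q7 cells. The largest stage differences lay in genes that did not pass against WT before onset, with 1 exception. Pou4f1, Anln, Onecut2 and Zbtb11os1 were higher after onset, with log2 fold changes between 2.35 and 6.06, and Myh7, Ankrd63, Otof, Hipk4 and Tnnc1 lower, with values between -4.43 and -3.26. The exception, Shox2, was at 0.408 and 0.425 CPM in pre-symptomatic HD, at 0 in both WT libraries and at 13.9 and 11.6 CPM after onset, and each pre-symptomatic value comes from 4 counts.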

How the data were processed

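The series holds 12 libraries of cortex and striatum, of which the 6 of cortex entered the fit. RNA was isolated with Trizol and sequenced from the 3′ end of transcripts with the Lexogen QuantSeq kit. The authors deposited raw read counts per gene symbol for each library. The submitters' processing notes name Bowtie2, bedtools and mm10, and the versions, the annotation and the counting rule are not given in the sources used here. Each table had 23282 gene rows, of which 44 repeated a symbol and 4306 had no count in any library.

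Genes were filtered with filterByExpr (minimum count 10), which left 14003 and removed 9279. Counts were scaled by TMM and fitted with edgeR 4.0.16 (robust quasi-likelihood, R 4.3.3) with a mean for pre-symptomatic HD, post-symptomatic HD and pooled WT cortex, 3 residual degrees of freedom, Benjamini-Hochberg adjustment and a threshold of 0.05. The difference between regions was tested in a fit of all 12 libraries, and the difference between stages in the cortex fit. Depth was between 10336064 and 12091201 counts in the 4 libraries compared. Replicates were taken from the labels. Alternatives were DESeq2 1.42.0, limma 3.58.1 (voom), other scalings, filters and thresholds, a term for sex, other sets of libraries, and each library left out. Removal of each library's trend with span or GC content, and the fit of all libraries except replicate 2 of pre-symptomatic HD striatum, were chosen after seeing the data. The scripts were tested on simulated data. Positions and gene features were taken from GENCODE M21 (GRCm38), which matched 98.9% of the genes tested. Promoter sequences were taken from RefSeq (GRCm38.p6).

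The comparison and the gene lists were chosen with earlier results of these data known. The genes named were up to 15 with the largest change in each direction among those called, provided that the mean reached 5 CPM and the groups did not overlap, the called members of each list (the 4 with the smallest p where more than 5 were called), up to 3 of the most abundant members of each list, a few genes that the study or the make-up of the libraries concerns, and up to 5 in each direction for the differences between regions and stages. The other list members named, among them Cnp, Mal, Clasp1, Gabbr1, Pdgfra, Cspg4, and the smaller calls among synaptic, channel, ubiquitin and chromatin genes, were chosen after looking at their values. Some members of the lists are counted but not reported here by name.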

Additional observations from a re-analysis of the deposited data

Results flagged for a closer look

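For 10 of the 30 genes with the largest changes against WT that the report names, the change between post-symptomatic and pre-symptomatic HD cortex passed the test of that difference (edgeR quasi-likelihood test, adjusted over all genes). The genes were picked for their pre-symptomatic values, which this contrast also uses, and both comparisons with WT share the WT libraries. Among genes higher before onset, the log2 difference was -1.06 for Shank3 (adjusted p = 0.00774), -1.21 for Hook1 (0.0281), -1.16 for Gabbr2 (1.88e-05) and -1.29 for Kcnh7 (0.00529), and their log2 fold changes against WT were 2.82, 2.74, 2.38 and 2.31 before onset and 1.76, 1.53, 1.22 and 1.03 after. Among genes lower before onset, the log2 difference was 1.88 for Casp9 (adjusted p = 1.04e-05), 0.76 for Tmem88b (5.49e-05), 1.24 for Ankrd39 (0.00461), 0.59 for Trf (0.0057) and 0.69 for Bcas1 (0.000116), and their log2 fold changes against WT were -1.91, -1.30, -1.21, -1.11 and -1.10 before onset and -0.02, -0.54, 0.03, -0.52 and -0.41 after. For Cplx3 the log2 difference was -1.43 (adjusted p = 0.00212), with -1.52 against WT before onset and -2.95 after. Their cause was not tested.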

How the results depend on the processing

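The count of 1419 genes called was 1355 with DESeq2, 1221 with limma voom, 1429 with upper-quartile scaling, 1748 with no filter, 1439 with a filter of 1 CPM in each library, 1506 with sex as a term, 1390 without Rn45s and 1745 in a fit of the 4 libraries alone. It was 102 in a fit of all 12 libraries, of which 100 were higher, 662 when replicate 2 of HD striatum was left out of that fit, and 722 at an adjusted p under 0.01, and it was 2065 with library totals in place of TMM. With 1 library left out it was between 512 and 1755. The share of calls that were higher, 71.0%, was 84.1% and 84.6% without HD replicates 1 and 2 and 81.9% without the WT mouse of 8 weeks. None of the 1419 calls was made in the opposite direction under any of these settings. The test of cortex less striatum called 16 genes with DESeq2 and between 0 and 1362 with 1 library left out. The stage contrast, with 2323 genes, called 1340 at an adjusted p under 0.01 and between 1227 and 2254 with 1 library left out. With the replicate number as a block over the 4 HD cortex libraries it called 1845 genes, beside 2210 without the block. The labels give the numbers no shared origin. In the HD groups replicate 1 was male and replicate 2 female by Xist and Y-linked genes, so this block is also a block on sex. The deviations of same-numbered libraries had a correlation of 0.0273 over 10543 genes. For HD against WT no analysis paired by replicate number was possible because the WT groups have no second number, and the fit with sex as a term, which called 1506 genes, is the nearest to it. Cops6 had a log2 fold change of -0.039 with library totals. Htt had log2 fold changes of 0.066 and -0.13 without the WT mouse of 13 and of 8 weeks and of 0.0008999 with the GC trend removed. The cause of these changes was not tested. Genes under 5 CPM rest on few reads, and 89 of the higher and 10 of the lower calls were of this kind.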
